A study of Mus musculus with 12 samples.

Results

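Capicua is a DNA-binding repressor that ataxin-1 holds in a protein complex, and its target genes were followed here as a family of 9: Etv1, Etv4, Etv5, Dusp4, Dusp6, Spry2, Spry4, Spred1 and Spred2. They were taken by name, as genes known from other work to be repressed by Capicua. Each of the 9 matched 1 Ensembl gene of the 56941 in the count tables, and all 9 were among the 20341 genes retained for testing.

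The RNA came from the cerebellum of 12 mice, 3 in each of 4 groups, with 1 library per mouse. SCA1 mice carried Atxn1154Q/2Q, a knock-in in which 1 Atxn1 allele encodes an expanded glutamine tract under its own promoter, so that the mutant protein is made wherever Atxn1 is active and not in Purkinje cells alone. WT mice were their C57BL/6J littermates. The exercise mice of each genotype could run on a wheel at will for 12 weeks, starting at 4 weeks old, the sedentary mice had no wheel, and all were about 16 weeks old at the end. Per the methods, exercise mice lived singly and sedentary mice in groups. Wheels were taken away before behavioral testing, and tissue was collected after the last test, so no mouse was sampled while it had a wheel. The mice of the study were male and female, but the sex of each library is not in the labels. Ribosomal RNA was removed before sequencing, and between 20556802 and 32127508 read pairs per library were counted on genes of the reverse strand, the strand that this directional kit reads.

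Capicua sits on the promoters and enhancers of genes that growth factor signalling switches on. When a receptor tyrosine kinase activates RAS and then the kinase ERK, ERK phosphorylates Capicua, the repressor leaves its sites and the targets are transcribed. Several of these targets in turn hold the pathway down, so they are often read as a gauge of RAS-MAPK activity. In spinocerebellar ataxia type 1 the expanded ataxin-1 stays bound to Capicua, and the complex is held to be a source of toxicity in the cerebellum. The 9 genes fall into 4 roles: ETV transcription factors, DUSP phosphatases that remove the activating phosphates from MAP kinases, Sprouty proteins that dampen receptor signalling to RAS, and Spred proteins that bring neurofibromin to RAS at the membrane.

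Capicua binds the octamer family TCAATGAA, TCAATGGA, TGAATGAA and TGAATGGA. RefSeq promoter windows of 300 bases, 250 before and 50 after a gene's start in GRCm38.p6, were at hand for 6 of the 9 genes, with 8 windows in all. Etv4, Dusp4 and Spry4 had none. Searched on both strands, an octamer was present in the windows of 2 of these 6 genes, Dusp6 and Spry2. Of all 27025 genes with a window 4.45% held one, and of all 32851 windows 3.84%. Both stretches below are shown because they hold these matches, and the capitals mark the octamers, which read on the opposite strand as TCAATGGA in Dusp6 and TCAATGAA in Spry2. Dusp6 is given from 100 bases before its start to 20 after it, at chr10:99263131-99263250 on the plus strand, and Spry2 over the 100 bases before its start, at chr14:105896820-105896919 on the minus strand.
Dusp6: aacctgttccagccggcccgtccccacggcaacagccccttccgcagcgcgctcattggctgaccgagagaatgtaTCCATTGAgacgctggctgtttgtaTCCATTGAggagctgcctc
Spry2: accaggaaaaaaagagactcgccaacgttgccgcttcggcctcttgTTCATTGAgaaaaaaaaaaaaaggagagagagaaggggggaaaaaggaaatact
In Dusp6 the octamers begin 24 bases before the start and 1 base after it. In Spry2 the octamer begins 54 bases before the start. A match of letters is not a measured binding site, and enhancers and introns lie outside these windows.

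Levels are given as CPM, read pairs per 1e+06 counted, computed from the reverse-strand counts with TMM library sizes. Divided by the annotated exon length, Etv1 was the most abundant of the 9 in WT sedentary mice, at 36.6 ± 4.69 CPM per kb (SD, n = 3). Spred1 followed at 21.6 ± 2.17 and Spred2 at 20.1 ± 1.32, and this pair overlapped between mice. Spry2 was at 9.58 ± 1.09 and Etv5 at 7.94 ± 0.729 CPM per kb. Dusp6 and Etv4 overlapped at 4.02 ± 0.454 and 3.95 ± 0.351. Dusp4 and Spry4, the scarcest, also overlapped at 2.16 ± 0.145 and 2.11 ± 0.0653. Only 1.15% of the genes tested had a higher mean level than Etv1, without regard to length, against 56.5% for Dusp4. The lowest count of any member in any library was 107 read pairs, for Dusp4.

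Before the comparisons, 2 libraries have to be set apart. In SCA1 sedentary mouse 16 and SCA1 exercise mouse 55, 6.38% and 6.33% of read pairs mapped to several places, against 2.08% to 3.46% in the other 10 libraries. The summed level of 6 brainstem markers was 43.0 and 31.4 CPM there and 0.350 to 2.79 CPM elsewhere, and Hoxc4 was at 0 in 8 of those 10 libraries. Oligodendrocyte markers were highest, and granule cell markers lowest, in the same 2 mice. The methods also name 2 RNA samples of lower integrity that were fragmented and amplified differently, the labels do not say which they are, and their part in any result was not tested. Purkinje cell markers identified the tissue as cerebellum in every library, but they moved with genotype. Their sums were 8263 to 9314 CPM in WT sedentary, 8701 to 9215 in WT exercise, 5019 to 6710 in SCA1 sedentary and 6642 to 8260 in SCA1 exercise mice, so that SCA1 mouse 55 came close to the lowest WT mouse and the other SCA1 mice were further below. In SCA1 sedentary against WT sedentary mice 10 of 10 had values below 0, with 9 at an unadjusted p under 0.05 and 2 called by the edgeR test, and a median log2FC of -0.71. Over all genes there, 10.1% reached that unadjusted p and 0.0344% were called. In SCA1 exercise against SCA1 sedentary mice 10 of 10 Purkinje cell markers had values above 0, with none called. At an unadjusted p under 0.05 there were 6, beside 2.17% of all genes. The part of these markers in the members' values was not tested. In bulk RNA, fewer cells of a type and less RNA per cell cannot be told apart. Many member values on SCA1 mice are given with and without mice 16 and 55. A value given only with all mice may still rest on that pair.

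**Figure D1:**
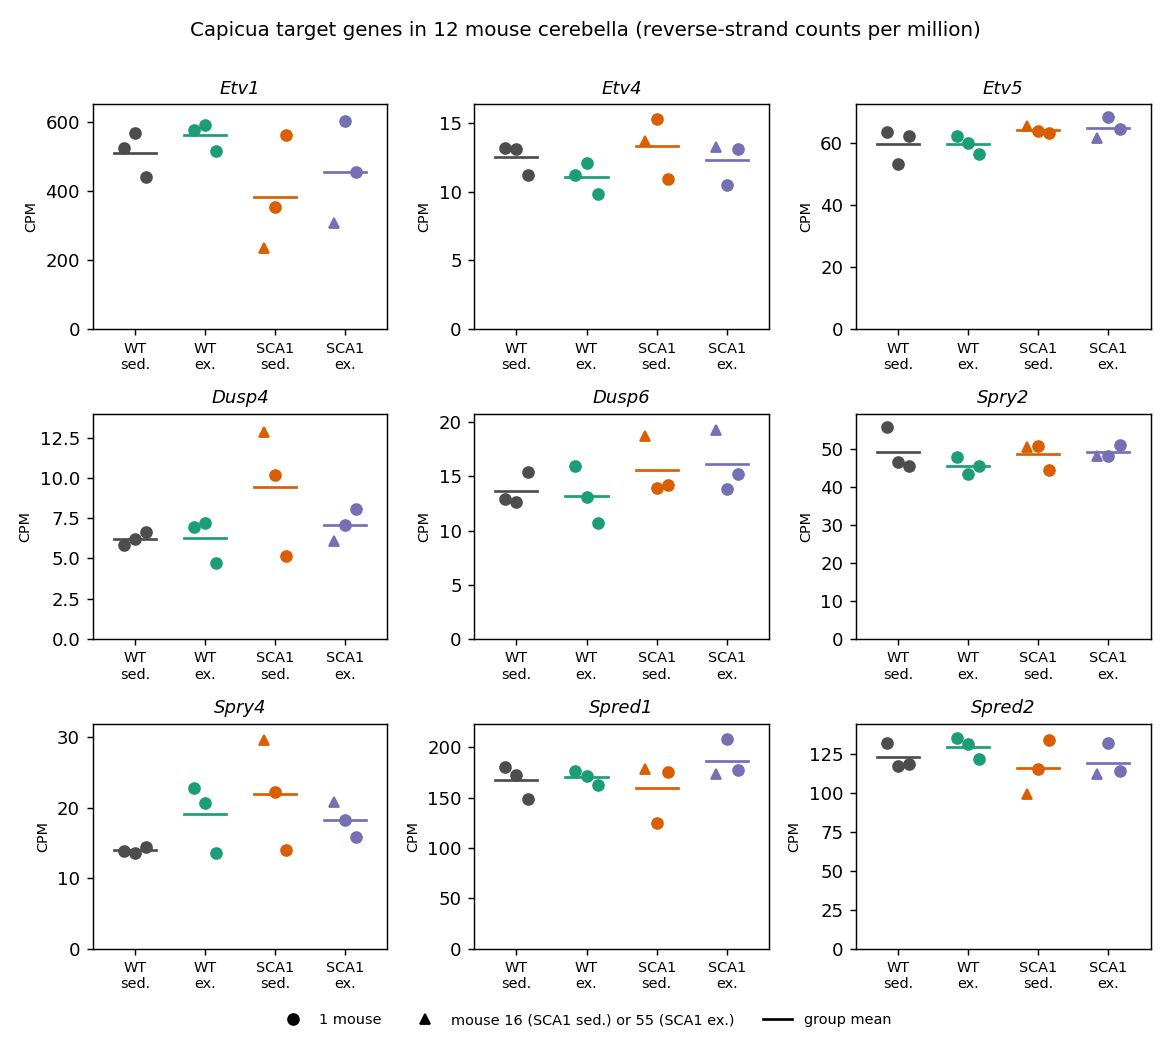
Level of each Capicua target gene in each of the 12 libraries, in CPM on axes that start at 0. Points are single mice, lines are group means of 3 mice, and triangles mark mice 16 and 55. Etv1 runs from 234 to 603 CPM with its lowest values in SCA1 mice, Spry4 from 13.6 to 29.5 CPM with its lowest values not limited to one genotype, and Etv5, Spry2 and Spred2 stay within a narrow band.

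The first question was whether the expanded Atxn1 allele shifts the targets in sedentary mice. None of the 9 genes was called between SCA1 sedentary and WT sedentary mice. A call needed a Benjamini-Hochberg adjusted p under 0.05 over 20341 genes and a log2FC beyond 0.5 in either direction (edgeR quasi-likelihood test), and 0.0344% of all genes, 7 in number, met it. DESeq2 also called none of the 9. At an unadjusted p under 0.05 there was 1 member, Spry4, beside 10.1% of all genes. The fitted values were above 0 for 5 members and below 0 for 4, while 52.5% of all genes were above 0. The members' median log2FC was 0.089 against 0.016 over all genes tested.

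Etv1, on chromosome 12 (GRCm39 38828851 to 38920483, plus strand), encodes an ETS-family activator that granule cells use as they mature. WT sedentary mice 116, 117 and 192 had 527, 569 and 440 CPM. SCA1 sedentary mice 16, 194 and 195 had 234, 353 and 562 CPM. Thus 2 of the 3 SCA1 mice were below every WT mouse and the third was among them, and the groups overlapped. The log2FC was -0.42 (SE 0.28, 95% interval -1.03 to 0.19), with an adjusted p of 0.651 by the edgeR test. The value hung on single SCA1 libraries, since it was -0.16 without mouse 16 and -0.81 without mouse 195. Without mice 16 and 55 it was -0.14, with an adjusted p of 0.684 by the same edgeR test.

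Granule cell markers moved with Etv1 over all 12 libraries, but hardly without mice 16 and 55, which had the lowest granule cell sums. The Pearson r of the summed level with Etv1 was 0.85 over the 12 libraries and 0.11 without that pair. Spearman's rho between Etv1 and the granule cell markers was 0.44 over the 12 libraries. Among the marker lists, brainstem and oligodendrocyte precursor markers had the r with Etv1 farthest from 0, both negative. For brainstem markers r was -0.91 (rho -0.87), and -0.66 without mice 16 and 55, where those markers were near 0. For oligodendrocyte precursor markers r was -0.90 (rho -0.79), and -0.54 without that pair. Of 8 granule cell markers, 7 had fitted values below 0 in SCA1 sedentary mice and 5 were lower at an unadjusted p under 0.05, while none passed the adjusted threshold. Their summed level was 5568 to 5826 CPM in WT sedentary mice and 2967, 5175 and 5275 CPM in SCA1 mice 16, 194 and 195. In mouse 194 Etv1 was lower than in mouse 195, and the summed granule cell levels of these mice were close. Single markers were split. Gabra6, Cbln3 and Neurod1 were at 338, 623 and 185 CPM in mouse 194, below mouse 195 and every WT sedentary mouse. Cbln1, Fat2, Grin2c, Slc17a7 and Calb2 were above their level in mouse 195, and Fat2 alone made up 2295 CPM of the sum in mouse 194. With the brainstem marker level as a covariate, the log2FC of Etv1 was -0.11. The part of any of these marker lists in the Etv1 level was not tested.

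Etv4, on chromosome 11 (101660568 to 101676197, minus strand), is a close relative and a common readout of ERK activity. Its levels were 13.2, 13.2 and 11.2 CPM in WT sedentary mice 116, 117 and 192, and 13.7, 15.3 and 10.9 CPM in SCA1 sedentary mice 16, 194 and 195. The groups overlapped at both ends, and the log2FC was 0.089 (SE 0.16). Etv5, the remaining relative, lies on chromosome 16 (22200052 to 22259662, minus strand). WT sedentary mice had 63.4, 53.3 and 62.1 CPM of Etv5, and SCA1 sedentary mice 65.3, 63.7 and 63.1 CPM. The SCA1 values lay close together, and 2 of them were above every WT value. The log2FC of Etv5 was 0.10 (95% interval -0.094 to 0.30), which keeps its fold between 0.937 and 1.23. The 3 ETV genes thus did not share a direction, with Etv1 fitted below 0 and the others slightly above it.

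Dusp4, on chromosome 8 (35274442 to 35287048, plus strand), encodes a nuclear phosphatase of ERK. Levels were 5.81, 6.20 and 6.64 CPM in WT sedentary mice 116, 117 and 192. In SCA1 sedentary mice 16, 194 and 195 they were 12.9, 10.2 and 5.15 CPM. Mice 16 and 194 were above all WT mice while mouse 195 was below them all. The log2FC was 0.60 (SE 0.29, 95% interval -0.017 to 1.22), with an adjusted p of 0.511 by the edgeR test. It was 0.31 without mouse 16, 0.33 without mice 16 and 55, and 0.88 without mouse 195.

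Dusp6 encodes the cytoplasmic phosphatase of ERK and lies on chromosome 10 (99086564 to 99103361, plus strand), where a predicted gene, Gm56968, overlaps it on the same strand. WT sedentary mice had 12.9, 12.6 and 15.4 CPM and SCA1 sedentary mice 18.7, 13.9 and 14.2 CPM. Only mouse 16 was outside the WT range, and the log2FC of 0.20 (SE 0.19) was 0.045 without that mouse. Dusp6, with both matches to TCAATGGA in its promoter stretch, was therefore not separated between genotypes by more than the spread of the mice.

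Spry2, on chromosome 14 (106128766 to 106136446, minus strand), is the more abundant of both Sprouty genes. Its levels were 55.8, 46.7 and 45.5 CPM in WT sedentary mice and 50.5, 50.9 and 44.6 CPM in SCA1 sedentary mice. The groups were interleaved, and the log2FC of -0.019 had a 95% interval from -0.24 to 0.20, which bounds its fold between 0.846 and 1.15.

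Spry4, on chromosome 18 (38719300 to 38736025, minus strand), showed the largest fitted change of the 9 in this comparison. WT sedentary mice 116, 117 and 192 had 13.8, 13.6 and 14.4 CPM, with a coefficient of variation of 3.09%, the lowest of the 9 genes in that group. SCA1 sedentary mice 16, 194 and 195 had 29.5, 22.3 and 14.0 CPM. Mouse 195 sat inside the WT range, so the groups overlapped. The log2FC was 0.66 (SE 0.25, 95% interval 0.12 to 1.19), a 1.58-fold higher level, with an unadjusted p of 0.0204 and an adjusted p of 0.397 by the edgeR test. It failed the correction, with 2 of 3 SCA1 mice above every WT mouse. The log2FC was 0.38 without mouse 16, 0.40 without mice 16 and 55, and 0.88 without mouse 195.

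Choroid plexus markers moved with Spry4. The choroid plexus, a secretory tissue beside the cerebellum, is marked by Ttr, Folr1, Kcnj13, Clic6 and Kl, none of which was at 0 in any library. All 5 had fitted values above 0 in SCA1 sedentary mice, with 2 at an unadjusted p under 0.05, beside 10.1% of all genes. Their sum was 408, 147 and 13.3 CPM in WT sedentary mice 116, 117 and 192, and 806, 1160 and 14.5 CPM in SCA1 sedentary mice 16, 194 and 195. Mouse 195, the SCA1 mouse with Spry4 inside the WT range, thus also had a choroid plexus sum inside the WT range. With the summed choroid plexus level as a covariate, the log2FC of Spry4 was 0.47 and that of Dusp4 0.39. Brainstem markers had fitted values above 0 too, with 4 of the 4 testable at an unadjusted p under 0.05, but this rested mainly on mouse 16. Their sum was 43.0 CPM in mouse 16, and 1.91 and 0.577 CPM in mice 194 and 195. WT sedentary mice had 0.513 to 0.981 CPM. With the brainstem sum as a covariate the log2FC was 0.44 for Spry4 and 0.47 for Dusp4. The part of any of these marker lists in the Spry4 and Dusp4 levels was not tested.

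Spred1, on chromosome 2 (116951524 to 117018277, plus strand, with the microRNA gene Mir674 inside it), had 181, 173 and 148 CPM in WT sedentary mice and 179, 125 and 175 CPM in SCA1 sedentary mice. Mouse 194 alone was below the WT range. The log2FC was -0.068 (SE 0.14). Spred2, on chromosome 11 (19874355 to 19974442, plus strand, overlapped by the predicted gene Gm72089), had 132, 117 and 119 CPM in WT sedentary mice. SCA1 sedentary mice 16, 194 and 195 had 98.8, 115 and 133 CPM of Spred2, with the order of mice that Etv1 showed. The log2FC of Spred2 was -0.083 (SE 0.12), and both Spred genes crossed 0 in some of the settings tried.

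**Figure D2:**
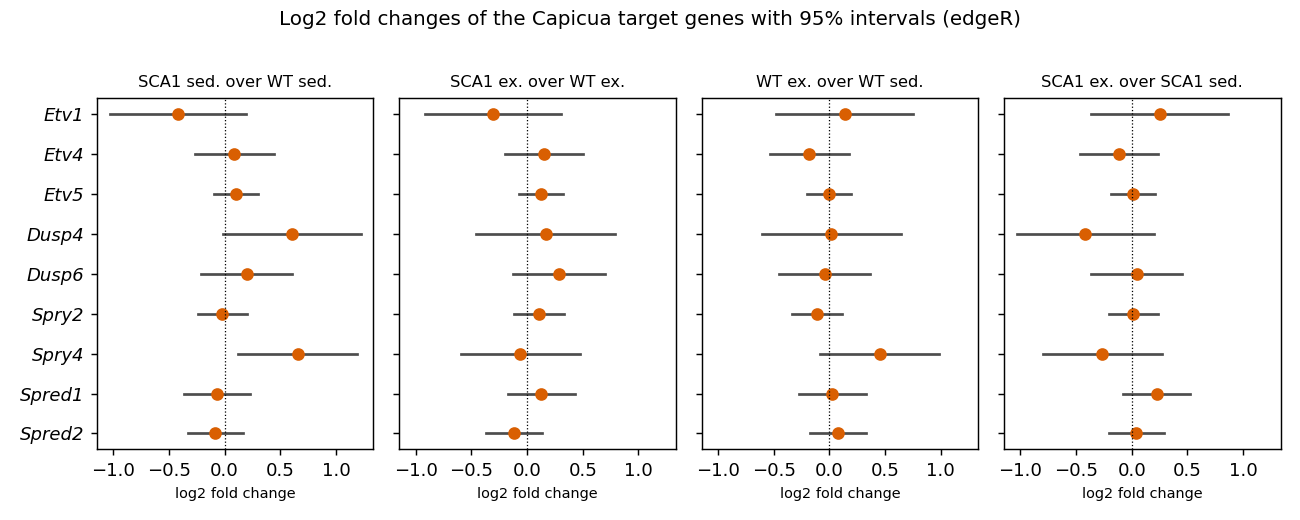
Fitted log2 fold change of each Capicua target gene (points) with its 95% interval (lines) in 4 comparisons, each panel naming the higher-coded group first. The dotted line is 0. The Spry4 interval in sedentary SCA1 over sedentary WT mice, 0.12 to 1.19, is the only one of these 36 that leaves out 0, and none passed the adjusted threshold.

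Exercised mice were compared by genotype next. None of the 9 genes was called between SCA1 exercise and WT exercise mice by the edgeR test, where 0% of all genes were, and 0 members stood beside 2.93% of all genes at an unadjusted p under 0.05. DESeq2 called none of them either. The median log2FC of the members was 0.12 against 0.0036 over all genes. Spry4, the leading member in sedentary mice, had 22.8, 20.7 and 13.6 CPM in WT exercise mice 121, 197 and 201, and 20.8, 18.2 and 15.8 CPM in SCA1 exercise mice 55, 122 and 198. The WT values enclosed the SCA1 values, and the log2FC was -0.060 (95% interval -0.59 to 0.47). Etv1 had 579, 592 and 518 CPM in WT exercise mice and 308, 603 and 456 CPM in SCA1 exercise mice 55, 122 and 198. Again 2 of 3 SCA1 mice were below every WT mouse and 1 was not, and the log2FC was -0.30 (SE 0.28). Without mice 16 and 55 it was -0.077.

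Spry2 was the single member without overlap in that comparison. WT exercise mice 121, 197 and 201 had 47.9, 43.4 and 45.6 CPM, and SCA1 exercise mice 55, 122 and 198 had 48.3, 48.1 and 51.1 CPM. The gap between the groups was small, and the log2FC was 0.11 (95% interval -0.11 to 0.33). Of all genes tested, 7.32% had every SCA1 exercise value above every WT exercise value. Dusp6, with 16.0, 13.1 and 10.7 CPM in WT and 19.3, 13.8 and 15.3 CPM in SCA1 exercise mice, had the highest fitted value of the 9 at a log2FC of 0.29 (SE 0.19), with overlap, and was at 0.15 without mice 16 and 55.

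Over both activity groups, 6 SCA1 mice against 6 WT mice, again none of the 9 was called by the edgeR test or by DESeq2, beside 0.118% of all genes by edgeR. No member reached an unadjusted p under 0.05, beside 9.81% of all genes. Members above 0 numbered 7, beside 52.4% of all genes, with a median log2FC of 0.11 against 0.011 over all genes. Dusp4 had the highest log2FC, 0.39 (95% interval -0.053 to 0.82), followed by Spry4 at 0.30 (-0.080 to 0.68) and Dusp6 at 0.24 (-0.046 to 0.53). Etv1 had the lowest, -0.36 (95% interval -0.79 to 0.072). Without mice 16 and 55 these values were 0.30 for Dusp4, 0.12 for Spry4, 0.11 for Dusp6 and -0.11 for Etv1. Etv4 was at 0.12, Etv5 at 0.11, Spry2 at 0.044, Spred1 at 0.030 and Spred2 at -0.10. The 95% intervals kept Etv5 between 0.981- and 1.19-fold and Spry2 between 0.925- and 1.15-fold, while Dusp4 was bounded only between 0.964- and 1.77-fold.

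Wheel running up to the behavioral tests was then compared with none within each genotype. Since exercise mice were also the ones housed singly, running and housing cannot be told apart in these comparisons or in the interaction. In WT mice none of the 9 was called by edgeR or by DESeq2, 0% of all genes were by edgeR, and 0 members stood beside 4.69% of all genes at an unadjusted p under 0.05. Spry4 had the highest value, with a log2FC of 0.45 (SE 0.25, 95% interval -0.085 to 0.99). WT exercise mice 121 and 197 were above every WT sedentary mouse, while mouse 201, at 13.6 CPM, was among them. Choroid plexus markers moved with it, 5 of 5 with fitted values above 0, with 4 at an unadjusted p under 0.05 and a sum of 816 to 1908 CPM in WT exercise mice. With that sum as a covariate the log2FC of Spry4 was 0.098. Every WT exercise sum was above every WT sedentary sum, so that fit cannot separate the marker level from the group. Mouse 201 had a sum of 1038 CPM and a Spry4 level inside the range of the sedentary WT mice. The part of these markers in the Spry4 level was not tested. The lowest fitted value was that of Etv4, which had 11.3, 12.1 and 9.82 CPM in WT exercise mice 121, 197 and 201 and a log2FC of -0.18 (SE 0.16).

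In SCA1 mice wheel running gave no called member by edgeR or by DESeq2, beside 0% of all genes by edgeR, and 0 members beside 2.17% of all genes at an unadjusted p under 0.05. The fitted values ran from Dusp4 to Etv1. Dusp4 had 6.07, 7.09 and 8.06 CPM in SCA1 exercise mice 55, 122 and 198, all between the extremes of the sedentary SCA1 mice, and a log2FC of -0.42 (SE 0.28), which was -0.12 without mouse 16 and -0.028 without mice 16 and 55. Etv1 was at 0.25 (SE 0.28), with -0.030 without mouse 122, 0.64 without mouse 195 and 0.21 without mice 16 and 55. Spred1 had 174, 208 and 177 CPM in SCA1 exercise mice and a log2FC of 0.22 (95% interval -0.075 to 0.52), with only mouse 122 above the sedentary SCA1 range. It was 0.36 without mice 16 and 55 and 0.086 without mouse 194. Spry4 was at -0.26 (SE 0.25), with 0.011 without mouse 16 and -0.096 without mice 16 and 55.

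**Figure D3:**
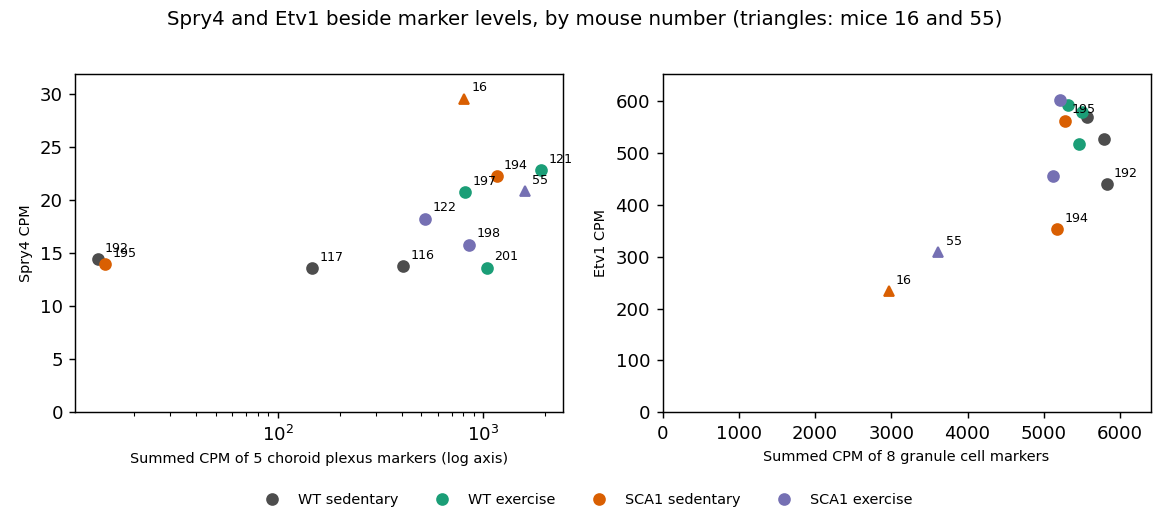
Left, Spry4 level against the summed level of 5 choroid plexus markers on a log axis. Right, Etv1 level against the summed level of 8 granule cell markers. Each point is 1 mouse, coloured by group, in CPM, and triangles are mice 16 and 55. The 4 libraries with choroid plexus sums of 408 CPM or less have Spry4 at 13.6 to 14.4 CPM, and mouse 201 also has 13.6 CPM at a sum of 1038 CPM. Mouse 194 has a low Etv1 level of 353 CPM at a granule cell sum of 5175 CPM, of which Fat2 alone is 2295 CPM.

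Exercised SCA1 mice were also set against sedentary WT mice, and no member was called by edgeR or DESeq2, beside 0% of all genes by edgeR. At an unadjusted p under 0.05 there were 0 members beside 4.21% of all genes. Spry4 had no overlap, since its 15.8 to 20.8 CPM in SCA1 exercise mice all lay above the 13.6 to 14.4 CPM of WT sedentary mice. The log2FC was 0.39 (95% interval -0.14 to 0.93), and 5.3% of all genes had every SCA1 exercise value above every WT sedentary value. Choroid plexus sums were 520 to 1595 CPM in these SCA1 mice, all above those of the WT sedentary mice. With the sums as a covariate the log2FC of Spry4 was 0.076, a fit that cannot separate the marker level from the group. Without mice 16 and 55 the log2FC of Spry4 was 0.30. Etv1 had the lowest value, -0.17 (SE 0.28), and was at 0.064, on the other side of 0, without mice 16 and 55.

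Whether the response to running differed between genotypes was tested as the interaction in the same edgeR model. No member was called, 0% of all genes were, and DESeq2 called no member, while 0 members stood beside 3.78% of all genes at an unadjusted p under 0.05. Spry4 came nearest, with an interaction of -0.72 on the log2 scale (SE 0.35, 95% interval -1.47 to 0.040, unadjusted p 0.0615, adjusted p 1.00 by the edgeR test). Its level was higher in both exercised WT and sedentary SCA1 mice than in sedentary WT mice by fitted value, and exercised SCA1 mice lay between. Without mice 16 and 55 the interaction of Spry4 was -0.55. The interaction of Dusp4 was -0.43 (SE 0.40), and -0.052 without that pair, and that of Spred1, the highest, 0.20 (SE 0.19).

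**Figure D4:**
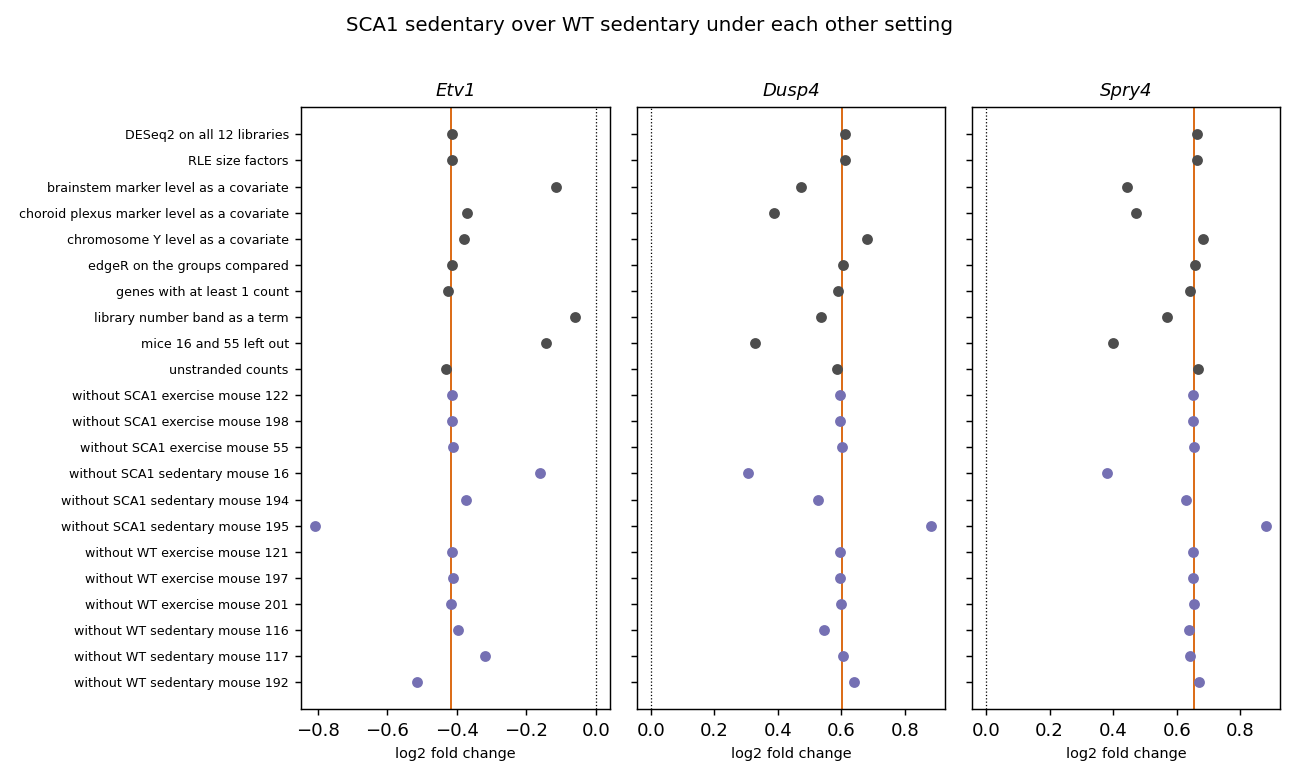
Fitted log2 fold change of Etv1, Dusp4 and Spry4 in SCA1 sedentary over WT sedentary mice under each other setting (dots; purple where 1 mouse was left out), beside the reported value (orange line) and 0 (dotted line). Dropping mouse 16 moves Spry4 to 0.38 and dropping mouse 195 moves it to 0.88, with Dusp4 and Etv1 shifted towards and away from 0 by the same 2 mice.

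How far the targets moved together was described over the libraries other than mice 16 and 55, since that pair stood apart. Over these 10 libraries Etv1 and Spred1 had the highest Pearson r of the 36 pairs, 0.85, which was 0.30 once mice 16 and 55 were included. Etv1 and Spred2 had a Pearson r of 0.73, Dusp4 and Spry4 of 0.72, and Etv4 and Dusp4 of 0.70, whereas Etv1 and Etv4 had -0.58. Etv1 with Dusp6 was at -0.18, and at -0.69 once mice 16 and 55 were included. The points share tissue composition and group differences, so these are descriptions without a test. Of all 36 pairs over 12 libraries, 21 were positive and the median r was 0.12. The genes did not form a block that rose and fell as 1.

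The single gene most like each member over the 12 libraries, among 11241 others with a mean log2 CPM of at least 3, was Negr1 for Etv1 (r = 0.99), a neuronal adhesion molecule, and Irs2 for Spry4 (r = 0.90), an adaptor of the insulin receptor. It was Arl6ip4 for Etv4 (0.93), Arsb for Etv5 (0.81), Rnf10 for Dusp4 (0.89), Cmpk2 for Dusp6 (0.87), Anp32b for Spry2 (0.90), Brox for Spred1 (0.96) and Phf3 for Spred2 (0.94). These values include mice 16 and 55. Spearman's rho, less open to single libraries, was 0.97 for Etv1, 0.92 for Etv4, 0.79 for Etv5, 0.68 for Dusp4, 0.74 for Dusp6, 0.85 for Spry2, 0.91 for Spry4, 0.80 for Spred1 and 0.84 for Spred2. No member was the closest gene to another. The best of so many candidates is high by selection.

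The repressor and its partner themselves were measured in the same libraries. Cic, which encodes Capicua, was at 290 ± 27.6, 310 ± 14.0, 339 ± 60.4 and 294 ± 3.17 CPM in sedentary WT, exercised WT, sedentary SCA1 and exercised SCA1 mice (SD, n = 3 each). Its log2FC in sedentary SCA1 against sedentary WT mice was 0.23 (SE 0.12), with an adjusted p of 0.567 by the edgeR test. Atxn1, whose gene count does not tell the expanded from the normal allele, was at 153 ± 8.28, 166 ± 6.05, 172 ± 17.9 and 175 ± 24.3 CPM in the same order. Of 7 genes of the ataxin-1 and Capicua complex, none was called in any of the 7 comparisons by edgeR.

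Upstream of RAS, 18 receptors and ligands were tested, and none was called in any comparison by edgeR. In sedentary SCA1 mice 12 had values above 0, 2 were higher and 1 lower at an unadjusted p under 0.05, and the median log2FC was 0.15 against 0.016 over all genes. Of all genes, 52.5% had values above 0 there and 10.1% reached that unadjusted p. Erbb4, a neuregulin receptor, was at 68.9 to 80.1 CPM in WT sedentary and 78.8 to 127 CPM in SCA1 sedentary mice (log2FC 0.42, SE 0.14), and Fgfr1 had a log2FC of 0.35 (SE 0.14). In the cascade from Grb2 to the ERK kinases and their targets, 27 genes were tested and none was called in any comparison. The median log2FC in sedentary mice was 0.0075, with 14 genes above 0 and 13 below. Shc1, an adaptor, was at 0.53 (SE 0.18) and Grb2, which links receptors to RAS activation, at -0.19 (SE 0.074), and neither passed the adjusted threshold.

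Relatives of the members that were not on the list were measured too. Of 11 other DUSP, Sprouty and Spred genes and Il17rd that were tested, none was called in any comparison by edgeR, and in sedentary mice 7 had values below 0, with a median log2FC of -0.12. Dusp5, a nuclear ERK phosphatase, was at 76.4 ± 4.25 and 85.0 ± 4.95 CPM in WT sedentary and WT exercise mice, and at 44.4 ± 16.6 and 50.9 ± 13.0 CPM in SCA1 sedentary and SCA1 exercise mice (SD, n = 3 each). Every WT mouse, from 72.7 CPM up, was above every SCA1 mouse, up to 65.4 CPM, a separation that 0.816% of all genes showed in that direction. Over both activity groups its log2FC was -0.76 (SE 0.16), with an unadjusted p of 0.000414 and an adjusted p of 0.109 by the edgeR test, which missed the threshold. The call depended on the setting. Dusp5 was called there in 5 of 9 alternatives, among them DESeq2 (adjusted p 0.00207) and edgeR without mice 16 and 55 (log2FC -0.81, adjusted p 0.0105), and in 2 of 12 edgeR fits without 1 mouse. By edgeR it was not called with RLE size factors (adjusted p 0.119), unstranded counts (0.0930), bands of mouse numbers (0.0550) or the choroid plexus covariate (0.0562), and the highest adjusted p was 0.315, without mouse 121. In sedentary mice alone it was called in none of 22 alternatives. The log2FC over both activity groups lay between -0.67 and -0.96 in every setting. Purkinje cell markers moved with Dusp5, since 10 of 10 had values below 0 over both activity groups, 9 at an unadjusted p under 0.05 and 2 called. Over all genes there, 9.81% reached that unadjusted p and 0.118% were called. The part of that cell type in the Dusp5 level was not tested. Dusp10, which acts on JNK and p38, had a log2FC of -0.34 (SE 0.11) in sedentary mice. Of 11 other genes transcribed in response to ERK, none was called either. Ier3 was at -0.66 (SE 0.18) in sedentary mice, and Fos at 2.44 (SE 0.87) with SCA1 values from 2.55 to 45.9 CPM.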

How the data were processed

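Cerebellar total RNA of 12 mice was depleted of ribosomal RNA and sequenced from both ends with a directional kit. Per the labels and the methods, the authors checked reads with FastQC (0.11.9 in the submitters' processing notes), trimmed them with fastp 0.24.0, aligned them to GRCm39 with STAR 2.7.10a and deposited STAR's raw gene counts, both unstranded and split by strand, with no normalization. The forward strand held 5.54% to 6.01% of stranded counts, so the reverse-strand counts were used.

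In R 4.3.3, the counts were filtered with filterByExpr and scaled by TMM, and 1 edgeR 4.0.16 quasi-likelihood model of the 4 groups was fitted to all genes, with Benjamini-Hochberg adjustment. The thresholds for a call were 0.05 for the adjusted p and 0.5 for the size of the log2FC. CPM used TMM library sizes. Symbols, positions and exon lengths are those of GENCODE M39, which held 56323 of the 56941 genes. The 4 summary lines of each file, which hold the read pairs without a gene (39.3% to 58.7%), were left out. RefSeq promoters are on GRCm38.p6 and were not compared with GRCm39 positions. Scripts were tested on simulated data.

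The 9 members and all lists were chosen with earlier results of these data known. Genes outside the members were named by a rule: the 2 with the lowest p in SCA1 sedentary against WT sedentary mice in each list, with marker genes and 1 gene that is not reported here left out, plus Cic, Atxn1 and the gene most correlated with each member. Further values of Dusp5 were chosen after its values were seen. The labels give each library as 1 mouse. With 3 mice against 3 an exact permutation test cannot go below p = 0.1, so none is given. Alternatives were DESeq2 1.42.0, RLE size factors, edgeR fitted to only the compared groups, a minimum of 1 count, unstranded counts, mice 16 and 55 left out, bands of mouse numbers, the level of chromosome Y genes as a covariate, no limit on the log2FC, and each mouse left out. Covariates for brainstem and for choroid plexus markers were added after seeing the data. Splicing and protein levels were not analysed here.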

Additional observations from a re-analysis of the deposited data

How the results depend on the processing

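No member was called in any of the 7 comparisons under any alternative, which were 9 planned settings, 2 added after seeing the data and 12 fits without 1 mouse. One of these, edgeR on the groups compared alone, was run for the 5 comparisons of 2 groups, since the other two use all 4 groups. The number of all genes called in SCA1 sedentary against WT sedentary mice, 7, was 206 with DESeq2, 76 at a minimum of 1 count, 205 without mice 16 and 55, 55 with bands of mouse numbers, 90 with the brainstem covariate, 3 with the choroid plexus covariate, 2 with the chromosome Y covariate and 0 with edgeR on the 2 groups alone (1158 at an unadjusted p under 0.05). Over both activity groups, 24 became 175 with DESeq2, 125 at a minimum of 1 count, 142 without mice 16 and 55, 84 with bands of mouse numbers, 91 with the brainstem covariate and 13 with unstranded counts. Single mice decided these counts too. Without 1 mouse, the sedentary count ran from 0 (without mouse 116 or 117) to 42 (without mouse 55), and the count over both activity groups from 0 (without mouse 201), with 3 without mouse 116, 117, 197, 122 or 198, to 63 (without mouse 55). In WT exercise against WT sedentary mice, 0 became 65 with DESeq2, 64 without mice 16 and 55, 45 at a minimum of 1 count and 150 with edgeR on those groups. The unadjusted p of Spry4 in sedentary mice was under 0.05 in 18 of 22 alternatives, and its lowest adjusted p was 0.109. These alternatives include fits that drop an exercised mouse, which is outside that comparison. By edgeR the unadjusted p was 0.0805 without mice 16 and 55 and 0.0684 with the brainstem covariate. For the interaction, the unadjusted p of Spry4 was under 0.05 in 7 of 21 alternatives (lowest adjusted p 0.407 by edgeR). In WT exercise against WT sedentary mice it was so in 7 of 22 (lowest adjusted p 0.194 by edgeR).

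Fitted values near 0 changed sign in places, and the cause was not tested. In SCA1 exercise against WT sedentary mice, the log2FC of Etv1 was 0.064 without mice 16 and 55, 0.13 with bands of mouse numbers, 0.11 with the brainstem covariate and 0.10 with the choroid plexus covariate. The band and brainstem settings are not independent of leaving out mice 16 and 55. That pair made up a band of its own and had the highest brainstem sums. In SCA1 sedentary against WT sedentary mice, that of Etv4 was -0.011 with the choroid plexus covariate. There, bands of mouse numbers gave 0.037 for Spred1, 0.042 for Spred2 and 0.024 for Spry2, and Spred2 was 0.038 without mice 16 and 55 and 0.018 with the brainstem covariate. Leaving out each mouse in turn gave -0.039 to 0.20 for Etv4, -0.16 to 0.068 for Spred1, -0.20 to 0.019 for Spred2 and -0.080 to 0.074 for Spry2 in that comparison, and -0.028 to 0.097 for Spred1 over both activity groups. It gave -0.44 to 0.064 for Etv1 in SCA1 exercise against WT sedentary mice, -0.030 to 0.64 for Etv1 and -0.50 to 0.011 for Spry4 in SCA1 exercise against SCA1 sedentary mice, and -0.26 to 0.080 for Spry4 in SCA1 exercise against WT exercise mice. No paired analysis was possible because no mouse number occurs in 2 groups. The precision of the log2FC is set by 3 mice a group.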
